A study of Mus musculus with 2 samples.

Results

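The 41 genes described here mark fenestrated endothelium or carry angiogenic signals. They were taken by name from a fixed list of symbols, and all 41 were found among the 55536 annotated genes of the study's gene tables. The tables come from total RNA sequencing of adrenal glands from 2 adult female mice of the strain B6CASTF1/J, aged 8 to 10 months, with no treatment named in the labels. This strain is the F1 hybrid of C57BL/6J and CAST mice, so each animal carries an allele from each parent, and the tables do not separate them. Replicate 2 is the gland of animal 3 and replicate 1 that of animal 1, and each library was made from 300 ng of RNA with ERCC spike-in RNA added. Both belong to 1 group, so the data give the level of each gene in the gland and the difference between 2 animals of the same kind, with no condition compared. The labels give the animals separate numbers but the same donor code. The gene tables held 34319787 expected counts in replicate 2 and 40453707 in replicate 1, and a count of 3 stood for 0.0874 CPM in replicate 2 and 0.0742 CPM in replicate 1.

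Blood enters the adrenal cortex through small arteries under the capsule and runs inward through sinusoidal capillaries lined by fenestrated endothelium. The pores of such endothelium are closed by diaphragms built from the protein of Plvap, and vascular endothelial growth factor A, made by cells outside the vessel wall, keeps the pores in place by acting on the receptor encoded by Kdr. Angiopoietins act on the receptor of Tek, apelin and adrenomedullin on receptors of the G-protein-coupled class, and Notch ligands on receptors of neighbouring cells.

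Several members encode protein forms that differ by a short stretch of coding sequence, and the transcript tables give each form its own value. These stretches are shown because the levels of the forms are compared below. In Vegfa (chr17, minus strand, mm10) 2 coding exons near the end are used or skipped. The shorter one has 72 bases (chr17:46022277-46022348) and the longer one 132 bases (chr17:46020991-46021122), and both encode the parts of the protein that bind heparin. The lines run from the exon before them to the stop codon, with the alternative exons in capitals. Sequences are those of GENCODE M21 transcripts.
Vegfa-207, both exons: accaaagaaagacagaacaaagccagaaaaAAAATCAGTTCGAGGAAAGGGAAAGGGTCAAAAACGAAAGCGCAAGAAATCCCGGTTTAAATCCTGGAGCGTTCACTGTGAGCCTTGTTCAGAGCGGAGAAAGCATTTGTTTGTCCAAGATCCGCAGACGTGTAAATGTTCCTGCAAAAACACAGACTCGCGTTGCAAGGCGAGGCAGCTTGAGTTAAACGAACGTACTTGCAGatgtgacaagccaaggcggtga
Vegfa-202, the longer exon: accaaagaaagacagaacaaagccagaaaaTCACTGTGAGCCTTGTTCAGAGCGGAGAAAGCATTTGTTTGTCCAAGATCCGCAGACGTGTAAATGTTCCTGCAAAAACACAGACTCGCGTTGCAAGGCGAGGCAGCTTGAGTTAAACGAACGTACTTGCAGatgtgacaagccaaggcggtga
Vegfa-201, neither exon: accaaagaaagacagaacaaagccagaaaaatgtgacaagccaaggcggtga
In Flt1 (chr5, minus strand), the truncated form Flt1-203 reads 92 coding bases past a splice site (chr5:147639133-147639224) and then stops, so its protein lacks the membrane-spanning and kinase parts. These 92 bases are in capitals.
Flt1-203: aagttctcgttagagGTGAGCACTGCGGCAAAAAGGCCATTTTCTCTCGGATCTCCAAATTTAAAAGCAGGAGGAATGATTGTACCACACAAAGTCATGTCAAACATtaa
In Vegfb (chr19, minus strand), Vegfb-201 carries 101 coding bases (chr19:6985496-6985596) that Vegfb-202 lacks, shown in capitals with the shared bases after them. The product of Vegfb-202 binds heparin, and that of Vegfb-201 is freely diffusible.
Vegfb-201: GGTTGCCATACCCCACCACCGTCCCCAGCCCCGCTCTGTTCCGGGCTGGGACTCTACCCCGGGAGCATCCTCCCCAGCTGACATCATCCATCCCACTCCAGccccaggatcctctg

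Across the list, 37 of the 41 members had 1 TPM or more in each animal, and 20 had 10 TPM or more. TPM is a level scaled for gene length and depth, and the value in each table is scaled over all features of the library. The median member had 9.46 TPM in replicate 2 and 10.7 TPM in replicate 1 (10.1 ± 0.849, SD, n = 2). Nuclear protein-coding genes had a median of 2.17 TPM in replicate 2 and 2.02 TPM in replicate 1. The members that missed 1 TPM in an animal were the ligand genes Angpt1, Angpt2 and Apln, and Stab2. Summed over the list the level was 701 TPM in replicate 2 and 691 TPM in replicate 1.

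**Figure D1:**
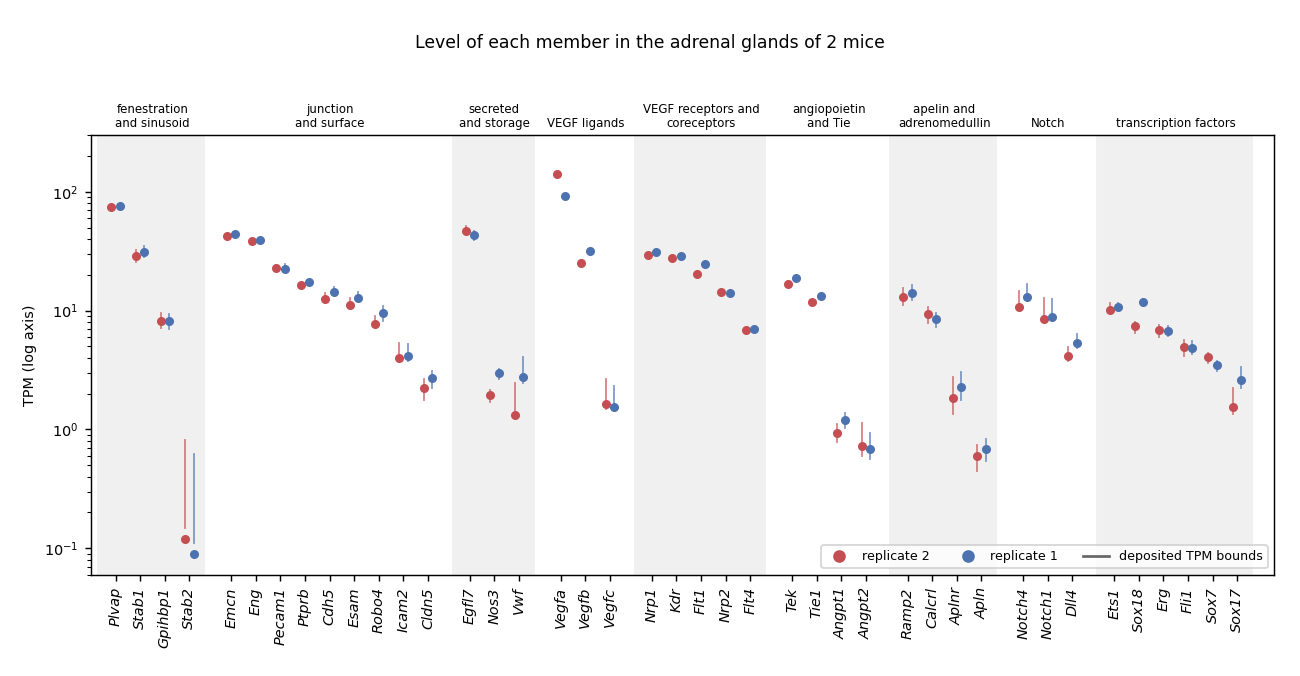
TPM of each of the 41 members on a log axis, grouped by role, with replicate 2 left of replicate 1; vertical lines are the deposited bounds of TPM within a library. Vegfa and Plvap stand highest, Stab2 stands lowest with bounds above its TPM, as Vwf and Notch1 have in replicate 2, and the animals lie close together for most members.

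Differences between the animals were small and mostly in 1 direction. Each is given as a log2 ratio of replicate 2 over replicate 1, from expected counts scaled with TMM factors. Among the 38 members whose counts averaged 100 or more, 0 were 2-fold apart with deposited TPM bounds that did not overlap, against 1.20% of all genes so tested. At 1.5-fold the same rule found 4 members lower in replicate 2, or 10.5% of the 38, against 2.58% of all genes. They were Sox17, Sox18, Nos3 and Vwf, and the bounds of Sox17 and Vwf only just cleared each other. The ratio of deposited TPM, with nothing added, put Vwf past 2-fold. None was 1.5-fold higher, against 2.44% of all genes.

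Of the 40 members whose counts averaged at least 10, 35 had a log2 ratio below 0 (87.5%), against 51.0% of all genes at that count and 54.3% of the protein-coding ones. The members' median ratio was -0.18, against -0.01 for all genes and -0.03 for protein-coding genes. On the scale of deposited TPM, which sits 0.09 higher (log2) than TMM-scaled counts over all genes, 29 of the 40 members were below 0 (72.5%), against 36.4% of all genes. The deposited bounds of the animals stood apart with a lower TPM in replicate 2 for 9 of the 40 members (Sox17, Sox18, Nos3, Vwf, Vegfb, Flt1, Nrp1, Tek and Tie1), against 7.14% of all genes. They stood apart with a higher TPM for 1 member, Vegfa, against 15.5% of all genes. In bulk tissue fewer cells of a type and less RNA per cell cannot be told apart. With 1 library on each side no test was possible, and the 2 animals give no p-value.

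**Figure D2:**
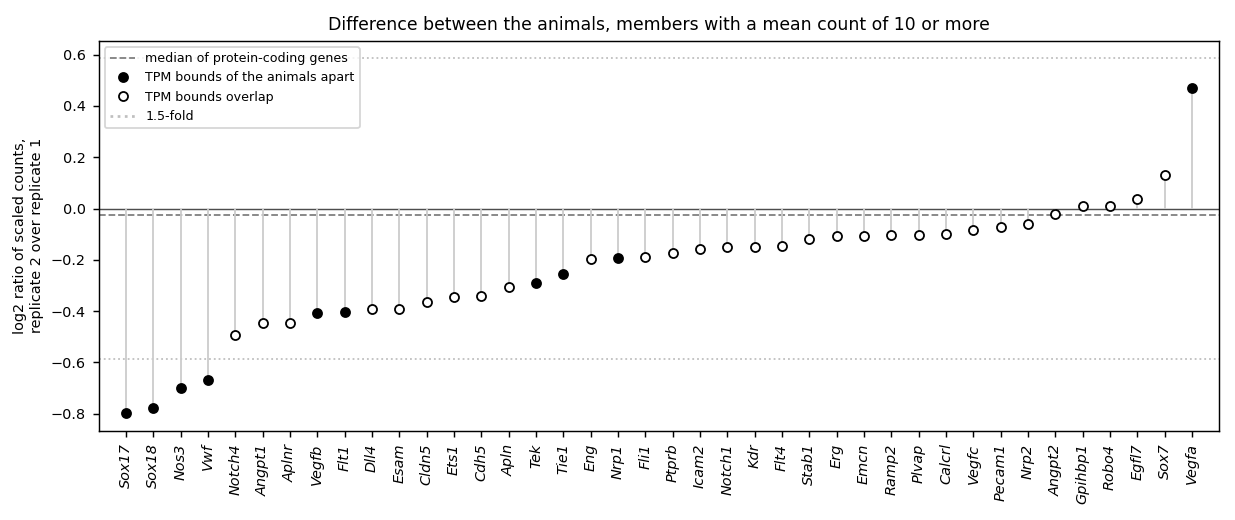
Log2 ratio of scaled counts, replicate 2 over replicate 1, for the 40 members whose counts averaged at least 10, in rising order. Filled points are members whose deposited TPM bounds do not overlap between the animals; Sox17, Sox18, Nos3 and Vwf lie past the 1.5-fold line and Vegfa stands alone at 0.47.

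Genes of fenestration and of sinusoids differed widely in level. Plvap (chr8:71497765-71511752), the gene of the diaphragm protein, had 74.7 TPM in replicate 2 and 75.3 TPM in replicate 1 (75.0 ± 0.481, SD, n = 2). Its rank among nuclear protein-coding genes was 790. Its level was 3.27 times that of the pan-endothelial gene Pecam1 in replicate 2 and 3.33 times in replicate 1. Against Cldn5, a claudin of tight endothelial junctions, Plvap was 33.5 times as high in replicate 2 and 27.9 times in replicate 1. The ratio to Pecam1 differed little between the animals, and the ratio to Cldn5 was higher in replicate 2.

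Stab1 and Stab2 encode scavenger receptors that are both known from sinusoidal endothelium of the liver, and Stab1 is also known from macrophages. Stab1 had 28.6 TPM in replicate 2 and 31.3 TPM in replicate 1. Its full-length coding transcript Stab1-201 held 9.17 TPM in replicate 2 and 9.70 TPM in replicate 1. A 242-base noncoding transcript, Stab1-202, held 8.22 TPM in replicate 2 and 11.5 TPM in replicate 1, and the index-based table listed it at 0 in both animals. The gene's TPM therefore lies well above that of its coding form. Stab2 had 0.120 TPM in replicate 2 and 0.0900 TPM in replicate 1, from 6 counts in replicate 2 and 3 in replicate 1, which is at the floor or near it. Gpihbp1, which carries lipoprotein lipase across capillary endothelium, had 8.25 TPM in replicate 2 and 8.14 TPM in replicate 1.

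Junction and surface genes of endothelium formed a graded series from Emcn at the top to Cldn5 at the bottom. Emcn, which encodes the sialomucin endomucin of capillaries and veins, had 42.6 TPM in replicate 2 and 44.3 TPM in replicate 1 (43.5 ± 1.17, SD, n = 2). Eng (chr2:32646595-32682669), a coreceptor of the TGF-beta family, had 38.3 TPM in replicate 2 and 39.7 TPM in replicate 1. Pecam1, an adhesion molecule of endothelial contacts, followed at a mean of 22.7 TPM and Ptprb, the vascular endothelial phosphatase, at 16.9 TPM. Lower still were Cdh5 (VE-cadherin) at 13.5 TPM, Esam at 12.0 TPM, Robo4 at 8.69 TPM, with 7.78 TPM in replicate 2 and 9.60 TPM in replicate 1, and Icam2 at 4.07 TPM. Cldn5 had 2.23 TPM in replicate 2 and 2.70 TPM in replicate 1. Of the 9 genes, 8 had a ratio below 0, and Robo4 had 0.01. The largest difference from counts was that of Esam at -0.39. From TPM, Robo4 had the largest at -0.30, and Pecam1 alone was above 0, at 0.01. Over protein-coding transcripts Robo4 went the other way, with 6.45 TPM in replicate 2 and 5.69 TPM in replicate 1.

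Some of these levels depended on which transcript table was read. Cdh5 had 12.5 TPM in replicate 2 and 14.5 TPM in replicate 1 in the alignment-based table, and 20.9 TPM in replicate 2 and 21.5 TPM in replicate 1 in the index-based table. The tables differed most in Cdh5-202, a 346-base coding transcript. It held 0.360 TPM in replicate 2 and was listed at 0 in replicate 1 in the first table, but held 11.1 TPM in replicate 2 and 9.71 TPM in replicate 1 in the second. The longer Cdh5-201 held 12.2 TPM in replicate 2 and 14.5 TPM in replicate 1 in the first table, and 9.78 TPM in replicate 2 and 11.8 TPM in replicate 1 in the second. For Eng the main transcript was Eng-201 in all tables, with 66.2% of the gene in replicate 2 and 67.8% in replicate 1.

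Egfl7, Nos3 and Vwf encode a secreted vascular factor, the endothelial nitric oxide synthase and the von Willebrand factor of storage granules. Egfl7 (chr2:26580014-26593120) had the third highest mean of the members, with 47.0 TPM in replicate 2 and 43.3 TPM in replicate 1, where Emcn was above it. Its coding transcripts held 54.0% of this in replicate 2 and 66.9% in replicate 1, and retained-intron forms made up most of the rest. Over coding transcripts it had 25.4 TPM in replicate 2 and 29.0 TPM in replicate 1, below Emcn, Eng and Nrp1 in both. Nos3 (chr5:24364810-24384474) had 1.94 TPM in replicate 2 and 2.96 TPM in replicate 1, from 259 counts in replicate 2 and 465 in replicate 1. The log2 ratio was -0.70, or 1.62-fold lower in replicate 2. Vwf (chr6:125546774-125686679) had 1.33 TPM in replicate 2 and 2.75 TPM in replicate 1, from 240 counts in replicate 2 and 422 in replicate 1, with a log2 ratio of -0.67 from counts and -1.05 from TPM.

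Both genes were thus lower in replicate 2, and the size for Vwf depended on the scale. Its deposited bounds were 1.40 to 2.447 TPM in replicate 2 and 2.448 to 4.08 TPM in replicate 1, so the value in replicate 2 lay below its own bounds. A 456-base noncoding transcript, Vwf-209, was listed at 0 in replicate 2 and held 1.24 TPM in replicate 1. The full-length coding transcript Vwf-203 held 0.630 TPM in replicate 2 and 1.06 TPM in replicate 1. Vwf is also made by platelets and their precursors. Of the 5 platelet genes examined, Itga2b had 1.55 TPM in replicate 2 and 0.990 TPM in replicate 1. Pf4 had 1.05 TPM in replicate 2 and 3.15 TPM in replicate 1, but 1.05 TPM in replicate 2 and 1.03 TPM in replicate 1 over protein-coding transcripts. Gp9 was listed at 0 in both animals and Gp1ba at 0 in replicate 2. The list summed to 2.78 TPM in replicate 2 and 4.55 TPM in replicate 1, and of the 3 of its genes whose counts averaged at least 10, 2 had ratios below 0. Its part in the Vwf difference was not tested. Of the Nos3 exon bases, 25.2% lie opposite the antisense gene Gm15587, which had 1 count in replicate 2 and 0 in replicate 1.

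Vegfa had the highest gene level of the members in both animals and, among the 40 whose counts averaged at least 10, the highest ratio. Vegfa (chr17:46016993-46032369, minus strand), the ligand that maintains fenestrated capillaries, had 142 TPM in replicate 2 and 93.0 TPM in replicate 1 (118 ± 34.7, SD, n = 2). Its log2 ratio was 0.47 from counts, or 1.38-fold higher in replicate 2, on 8350 counts in replicate 2 and 6668 in replicate 1. Its rank among nuclear protein-coding genes was 444. Vegfb, the ligand of the Flt1 receptor, had 25.3 TPM in replicate 2 and 31.6 TPM in replicate 1, a log2 ratio of -0.41. The deposited bounds of both ligands did not overlap between the animals, and the directions were opposite. The ratio of Vegfa to Vegfb was 5.63 in replicate 2 and 2.94 in replicate 1. Vegfc, the lymphatic ligand that binds the Flt4 receptor, had 1.65 TPM in replicate 2 and 1.56 TPM in replicate 1.

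Of the VEGF receptors and coreceptors, Flt1 and Nrp1 had bounds apart between the animals, and both were lower in replicate 2. Nrp1, which encodes a coreceptor of Vegfa, led with 29.2 TPM in replicate 2 and 31.3 TPM in replicate 1. Kdr (chr5:75932827-75978458), the main signalling receptor, had 27.9 TPM in replicate 2 and 28.9 TPM in replicate 1, and Nrp1 was the higher of the pair in both animals by a small margin. Flt1, a receptor that binds Vegfa tightly and signals weakly, had 20.5 TPM in replicate 2 and 24.7 TPM in replicate 1, a log2 ratio of -0.40 with bounds apart. The coreceptor gene Nrp2 had 14.4 TPM in replicate 2 and 14.0 TPM in replicate 1. Flt4, the receptor of Vegfc, had 6.83 TPM in replicate 2 and 7.05 TPM in replicate 1. All 5 had ratios below 0, with a median of -0.15, and on the scale of deposited TPM Nrp2 was above 0. Of the ligands and receptors together Vegfa alone was above 0 from counts, and from TPM Vegfc and Nrp2 were as well. The ratio of Kdr to Flt1 was 1.36 in replicate 2 and 1.17 in replicate 1. The ratio of Kdr to Flt4 was 4.08 in replicate 2 and 4.10 in replicate 1.

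The coding forms of Vegfa kept 1 order in both animals. Vegfa-202, with the longer exon, held 43.5 TPM in replicate 2 and 29.8 TPM in replicate 1. Vegfa-201, with neither exon, held 18.8 TPM in replicate 2 and 12.5 TPM in replicate 1. Vegfa-207, with both, held 8.88 TPM in replicate 2 and 6.92 TPM in replicate 1. The annotated coding region of Vegfa-202 and of Vegfa-207 starts upstream of that of Vegfa-201. Counted together, coding transcripts held 50.1% of the gene's TPM in replicate 2 and 52.9% in replicate 1, with a log2 ratio of counts of 0.45. The rest was in 3 retained-intron transcripts, which held 70.9 TPM in replicate 2 and 43.8 TPM in replicate 1. The higher level of Vegfa in replicate 2 was thus seen in coding and in retained-intron transcripts.

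The index-based table placed the same form first. Vegfa-202 and its like (the longer exon only) held 45.4 TPM in replicate 2 and 28.9 TPM in replicate 1 there. The form with neither exon held 7.81 TPM in replicate 2 and 5.63 TPM in replicate 1, and the form with both held 3.72 TPM in replicate 2 and 5.24 TPM in replicate 1. The order of these 3 forms was thus the same in both tables and both animals, while the direction of the form with both exons differed between the tables. Other coding transcripts of Vegfa held 7.49 TPM in replicate 2 and 0 in replicate 1 in the index-based table. In the alignment-based table they were at 0 in both animals, so the tables differed in these. The gene's log2 ratio was 0.44 in the index-based table.

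Flt1 was split between a full-length and a truncated receptor. Flt1-202, the full-length form, held 11.5 TPM in replicate 2 and 14.8 TPM in replicate 1. The truncated Flt1-203, whose extension is printed above, held 5.23 TPM in replicate 2 and 6.27 TPM in replicate 1. Of the sum of both forms the truncated one made up 31.2% in replicate 2 and 29.8% in replicate 1, and 31.0% in replicate 2 and 29.2% in replicate 1 in the index-based table. The share thus lay between 29.2% and 31.2% over both animals and both tables. A noncoding transcript, Flt1-201, held 3.45 TPM in replicate 2 and 3.41 TPM in replicate 1.

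Vegfb gave nearly equal levels of its forms. Vegfb-202 held 12.9 TPM in replicate 2 and 16.3 TPM in replicate 1, and Vegfb-201 held 12.1 TPM in replicate 2 and 14.7 TPM in replicate 1. Vegfb-201 made up 48.5% of their sum in replicate 2 and 47.4% in replicate 1. In the index-based table its share was 48.9% in replicate 2 and 44.3% in replicate 1. Both forms were lower in replicate 2, with log2 ratios of -0.37 for Vegfb-201 and -0.43 for Vegfb-202. Kdr was carried almost entirely by Kdr-201, with 95.8% in replicate 2 and 96.8% in replicate 1, and Nrp1 by Nrp1-201, with 92.0% in replicate 2 and 93.9% in replicate 1.

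**Figure D3:**
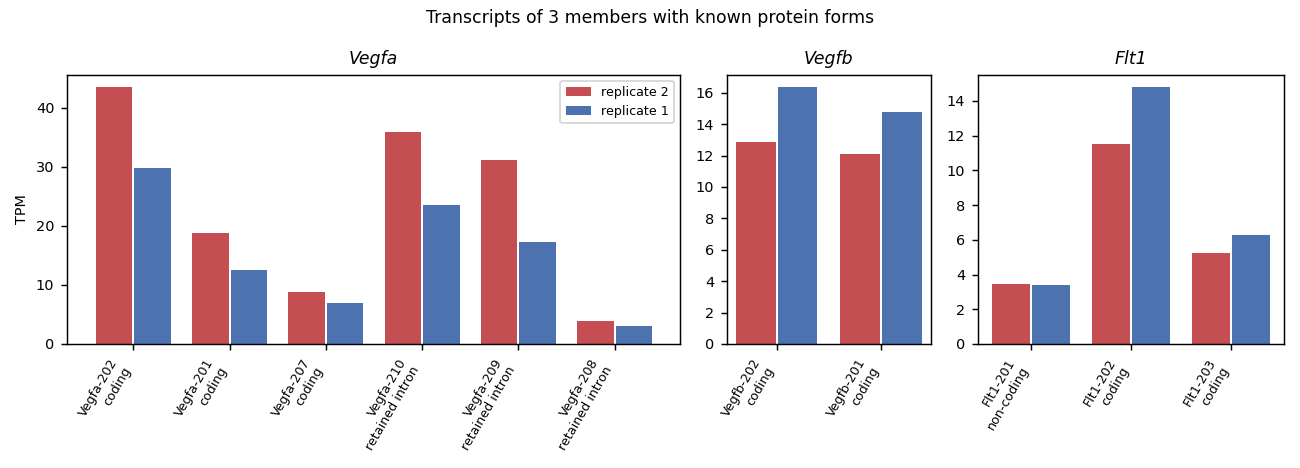
TPM of the transcripts of Vegfa, Vegfb and Flt1 in the alignment-based tables, with the bar of replicate 2 left of that of replicate 1; each panel has its own axis from 0. All Vegfa transcripts shown are higher in replicate 2, and both Vegfb transcripts and both coding Flt1 transcripts are lower.

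In the angiopoietin system the receptors were present and the ligands low. Tek, the angiopoietin receptor, had 16.9 TPM in replicate 2 and 18.9 TPM in replicate 1, a log2 ratio of -0.29. Tie1, its partner receptor, had 11.8 TPM in replicate 2 and 13.3 TPM in replicate 1, a log2 ratio of -0.25. Their ratio was 1.43 in both animals, and the bounds of both genes were apart. Angpt1, the activating ligand, had 0.930 TPM in replicate 2 and 1.19 TPM in replicate 1. Angpt2, the context-dependent ligand, had 0.720 TPM in replicate 2 and 0.680 TPM in replicate 1. Tek was 18.2 times as high as Angpt1 in replicate 2 and 15.9 times in replicate 1. Tek-203 was the main coding transcript of the receptor, with 68.9% in replicate 2 and 59.6% in replicate 1.

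The adrenomedullin receptor genes stood above those of the apelin system. Calcrl, the receptor, had 9.46 TPM in replicate 2 and 8.49 TPM in replicate 1, and Ramp2, the accessory protein that makes it an adrenomedullin receptor, 13.1 TPM in replicate 2 and 14.2 TPM in replicate 1. These values are less firm than most. Ramp2 shares 33.4% of its exon bases with Vps25 on the same strand, and a 500-base noncoding transcript, Calcrl-203, held 43.4% of Calcrl in replicate 2 and 36.8% in replicate 1. The index-based table gave 21.4 TPM in replicate 2 and 26.0 TPM in replicate 1 for Ramp2, and 5.88 TPM in replicate 2 and 6.13 TPM in replicate 1 for Calcrl. Aplnr, the apelin receptor, had 1.85 TPM in replicate 2 and 2.26 TPM in replicate 1, with overlapping bounds. Its ligand gene Apln had 0.600 TPM in replicate 2 and 0.690 TPM in replicate 1.

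Notch receptors of endothelium were at moderate levels. Notch4, a receptor largely restricted to endothelium, had 10.8 TPM in replicate 2 and 13.0 TPM in replicate 1, a log2 ratio of -0.49. Its full-length coding transcript Notch4-201 held 4.71 TPM in replicate 2 and 6.31 TPM in replicate 1. Notch1 had 8.58 TPM in replicate 2 and 8.82 TPM in replicate 1. Dll4, the ligand of arteries and sprouting tips, had 4.13 TPM in replicate 2 and 5.36 TPM in replicate 1, with a log2 ratio of -0.39. All 3 were below 0, and the bounds of each overlapped between the animals.

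Among transcription factors, Sox17 and Sox18 differed most between the animals, from counts and from TPM alike. Ets1 had 10.1 TPM in replicate 2 and 10.7 TPM in replicate 1 and had the highest mean, while Sox18 was above it in replicate 1. Sox18 (chr2:181669836-181671640) had 7.40 TPM in replicate 2 and 11.9 TPM in replicate 1, from 372 counts in replicate 2 and 705 in replicate 1, a log2 ratio of -0.78. Sox17 (chr1:4490931-4497354) had 1.55 TPM in replicate 2 and 2.62 TPM in replicate 1, from 93 counts in replicate 2 and 179 in replicate 1, a log2 ratio of -0.80. These genes and Sox7 form the SoxF group, which acts in arterial and lymphatic development. Sox7 went the other way, with 4.07 TPM in replicate 2 and 3.49 TPM in replicate 1 and a log2 ratio of 0.13. The ratio of Sox18 to Sox17 was 4.77 in replicate 2 and 4.55 in replicate 1. The ETS factors Erg and Fli1 stood at means of 6.83 TPM and 4.91 TPM, with ratios of -0.11 and -0.19 from counts and just above 0 from TPM. Sox17 shares 16.8% of its exon bases with Gm37587 on the opposite strand, which had 5 counts in replicate 2 and 0 in replicate 1.

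**Figure D4:**
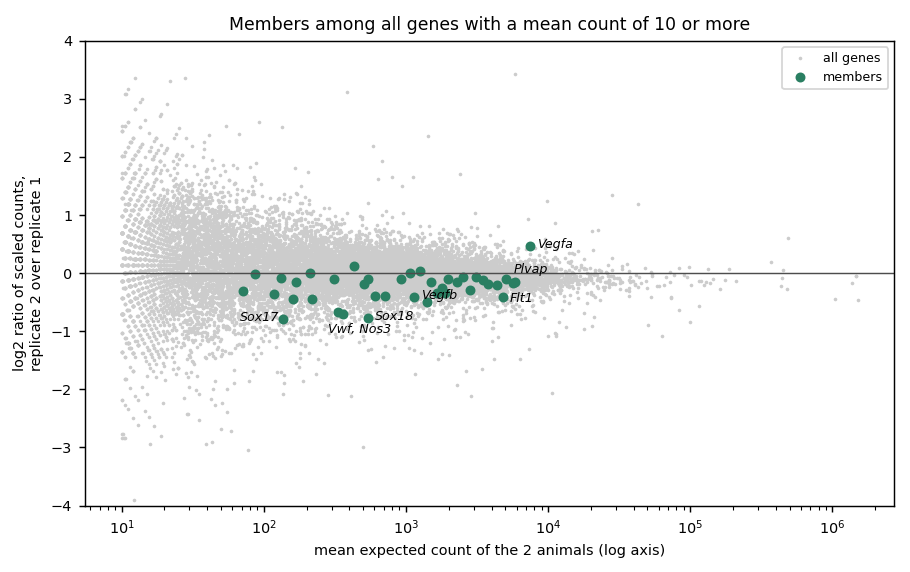
Log2 ratio of scaled counts, replicate 2 over replicate 1, against the mean expected count (log axis) for all genes with a mean count of 10 or more (grey) and the members (green); 64 genes lie beyond the axis limits of -4 and 4. Most members lie just below 0, within the spread of genes of like count, and Vegfa lies above 0 at a high count.

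Ranked by mean TPM, Vegfa and Plvap were set apart from each other and from all other members in both animals. Over protein-coding transcripts alone the leading pair changed places, with 74.7 TPM in replicate 2 and 75.3 TPM in replicate 1 for Plvap and 71.2 TPM in replicate 2 and 49.2 TPM in replicate 1 for Vegfa. Below them Egfl7 and Emcn overlapped between the animals, and Eng was lower than both, though its deposited bounds reached those of Emcn. Of Nrp1, Stab1, Vegfb and Kdr, each overlapped the next between the animals, though Nrp1 stood above Kdr in both. Of the 40 neighbouring pairs in the whole order, 25 overlapped between the animals. Ligand genes spanned the range. By mean TPM, Vegfa and Vegfb were among the 8 highest members, while Vegfc, Angpt1, Angpt2 and Apln were, with Stab2, the 5 lowest. In replicate 2, Vegfb was below Kdr, and Vwf and Sox17 were below Vegfc. The receptors of VEGF and angiopoietins lay between 6.94 TPM for Flt4 and 30.3 TPM for Nrp1.

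The members varied in features that their choice did not use, and these were counted over the members alone. Protein-coding transcripts held 95% or more of the TPM in both animals for 20 members and under 60% for 5, namely Vegfa, Stab1, Notch4, Vwf and Stab2. Of the 19 members with several transcripts and 10 TPM or more in both animals, 17 had the same highest transcript in both animals, and 14 had the same one in all 4 tables. Egfl7 and Stab1 had different highest transcripts in the 2 animals. Cdh5, Pecam1 and Ramp2 differed only through the index-based tables. Below 10 TPM the highest transcript also differed between the animals for Calcrl, Robo4, Sox17, Vwf and Stab2, and between tables for Erg. For 11 members some exon bases overlapped another annotated gene.

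RefSeq promoters (GRCm38.p6, 250 bases before to 50 after the start) were at hand for 23 members, with 28 entries. The letters AGGAAG, the core bound by ETS factors such as Ets1, Erg and Fli1, were searched on both strands. They occurred in 14 of the 28 member promoters, and in 35.4% of all 32851 promoters. The promoter with the most matches, that of Notch4 with 4, is printed with that of Flt1, which held 2. Capitals mark the letters, read as CTTCCT on the opposite strand. A match is not a site of binding. The window of Notch4 is chr17:34564045-34564344 (plus strand) and that of Flt1 chr5:147725962-147726261 (minus strand).
Notch4 promoter: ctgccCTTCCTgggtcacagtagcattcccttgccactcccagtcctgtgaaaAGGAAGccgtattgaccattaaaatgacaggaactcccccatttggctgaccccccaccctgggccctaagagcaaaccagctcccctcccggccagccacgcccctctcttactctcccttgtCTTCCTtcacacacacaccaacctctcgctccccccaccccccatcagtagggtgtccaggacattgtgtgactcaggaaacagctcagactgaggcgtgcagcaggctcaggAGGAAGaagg
Flt1 promoter: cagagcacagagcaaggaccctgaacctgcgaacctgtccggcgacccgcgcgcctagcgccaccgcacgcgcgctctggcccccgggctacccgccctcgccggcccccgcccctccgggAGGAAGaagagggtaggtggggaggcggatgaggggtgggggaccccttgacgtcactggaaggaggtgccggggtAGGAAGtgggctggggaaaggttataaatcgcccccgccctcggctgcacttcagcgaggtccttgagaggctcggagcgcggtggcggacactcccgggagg

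Other genes of the same pathways and vessel types were set beside the members. In the list of other VEGF genes and regulators, 11 of 12 had ratios below 0 (8 of 12 from TPM), with a median of -0.23. Its highest genes were Epas1, which encodes a hypoxia-inducible factor, at a mean of 72.9 TPM and Hif1a at 22.9 TPM. Thbs1, an inhibitor of angiogenesis, had 7.11 TPM in replicate 2 and 14.1 TPM in replicate 1 (log2 ratio -1.10). Angptl4, a lipase inhibitor induced by fasting and hypoxia, had 5.91 TPM in replicate 2 and 12.8 TPM in replicate 1 (log2 ratio -1.25). Both passed the 2-fold rule applied to counts. Over protein-coding transcripts Angptl4 had 1.16 TPM in replicate 2 and 3.16 TPM in replicate 1, with a log2 ratio of counts of -1.53. Vegfd, another ligand of Flt4, had 15.8 TPM in replicate 2 and 17.9 TPM in replicate 1, so it stood above the member Vegfc.

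Of the other angiopoietin, apelin and adrenomedullin genes, 5 of 10 had a mean count of 10 or more, and 4 of these were below 0 (2 of 5 from TPM). Ackr3, a scavenging receptor, led at a mean of 29.8 TPM and Angptl2 followed at 10.9 TPM. The apelin-like ligand gene Apela was listed at 0 in both animals. Other Notch pathway genes were below 0 in 7 of 10 (median -0.32), led by Notch2 at 33.5 TPM and Rbpj, the transcription factor of the pathway, at 16.6 TPM. Other endothelial transcription factors were below 0 in 8 of 11 (4 of 11 from TPM, median from counts -0.05), led by Mef2c at 14.9 TPM and Elk3 at 13.4 TPM, and Etv2 was listed at 0 in both animals.

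Arterial genes were below 0 in 7 of 7 (median -0.49) and venous genes in 6 of 6 (median -0.26), from counts and from TPM alike. The shares of all genes were 51.0% from counts and 36.4% from TPM. The highest arterial genes were Fbln5 at a mean of 16.2 TPM and Efnb2, the ligand of arterial identity, at 5.56 TPM. The highest venous genes were Nr2f2, a factor of venous identity, at 36.8 TPM and Ephb4, the receptor of Efnb2, at 20.4 TPM. Nr2f2 thus stood above the pan-endothelial gene Pecam1, whose mean was 22.7 TPM. Lymphatic genes were below 0 in 6 of 7 (4 of 7 from TPM, median from counts -0.54). Prox1, the master factor of lymphatic identity, had 15.6 TPM in replicate 2 and 14.2 TPM in replicate 1. Its lower bound in replicate 2 (14.66 TPM) only just cleared its upper bound in replicate 1 (14.52 TPM). It alone of the list was above 0 from counts, at a log2 ratio of 0.02. In the index-based table its log2 ratio was -0.02. Its mean was 14.9 TPM, and the other genes of the list had means of 2.92 TPM or less. Which cells of the gland made Prox1 was not tested, nor was it for the other genes in this paragraph. Lyve1, a hyaluronan receptor, had 1.58 TPM in replicate 2 and 4.26 TPM in replicate 1, a log2 ratio of -1.15, and passed the 2-fold rule. Over protein-coding transcripts Lyve1 had 1.54 TPM in replicate 2 and 2.88 TPM in replicate 1. The log2 ratio of those counts was -0.994, just short of 2-fold. Foxc2 is on 2 of the lists and Hey1 on 2. Markers of liver sinusoids were below 0 in 3 of 5 (5 of 5 from TPM). They were led by Mrc1 at a mean of 6.36 TPM and Fcgr2b at 3.85 TPM, and whether endothelium or leukocytes made these was not tested. Below these came Fcna at 1.73 TPM, Oit3 at 1.70 TPM and Clec1b at 0.840 TPM, and Clec4g was listed at 0 in both animals. Genes of barrier endothelium were below 0 in 4 of 6 (1 of 6 from TPM). Highest were Abcb1a at a mean of 15.9 TPM and Slc2a1, the glucose transporter, at 9.06 TPM. The others were lower, with Lsr at 1.65 TPM, Mfsd2a at 0.570 TPM, Slco1a4 at 0.250 TPM and Slco1c1 at 0.190 TPM.

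Further genes of capillary endothelium had ratios close to those of the members, with 16 of 18 below 0 (14 of 18 from TPM) and a median of -0.19. They were led by Tspan12 at a mean of 54.6 TPM and Adgrl4 at 30.8 TPM. All 18 reached 1 TPM in both animals, and 0 passed the 2-fold rule, against 1.20% of all genes.

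**Figure D5:**
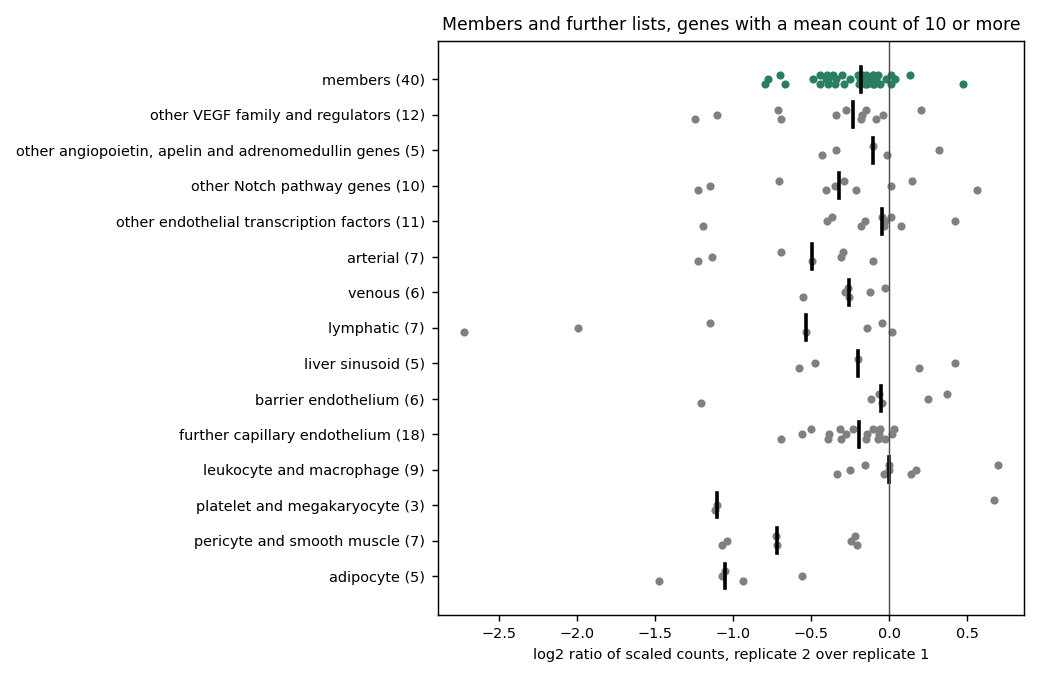
Log2 ratios, replicate 2 over replicate 1, of the members and of 14 further lists, for genes with a mean count of 10 or more (number in brackets); black bars are medians. The members' median is -0.18, and the medians of pericyte and smooth muscle genes at -0.72 and of adipocyte genes at -1.05 lie lower, as do those of platelet, lymphatic, arterial and some other lists.

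Markers of other cell types in and around the gland also differed between the animals. Of all genes, 51.0% were below 0 from counts, and 1.20% of those tested passed the 2-fold rule. Adipocyte genes were below 0 in 5 of 5, with a median of -1.05, and summed to 506 TPM in replicate 2 and 958 TPM in replicate 1. Fabp4 (220.5 TPM in replicate 2 and 435 TPM in replicate 1), Ucp1 (61.5 TPM in replicate 2 and 161 TPM in replicate 1) and Adipoq (53.7 TPM in replicate 2 and 105 TPM in replicate 1) passed the 2-fold rule. Plin1 was the second highest, at a mean of 129 TPM. Pericyte and smooth muscle genes were below 0 in 7 of 7, with a median of -0.72, and summed to 34.2 TPM in replicate 2 and 50.8 TPM in replicate 1. Acta2, the smooth muscle actin, had 10.9 TPM in replicate 2 and 20.8 TPM in replicate 1, Myh11 had 0.830 TPM in replicate 2 and 1.60 TPM in replicate 1, and both passed the 2-fold rule. Pdgfrb was the second highest, at 8.39 TPM.

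Leukocyte and macrophage genes were below 0 in 6 of 9 (3 of 9 from TPM), with a median of -0.01, and summed to 118 TPM in replicate 2 and 127 TPM in replicate 1. Lyz2 led at a mean of 71.7 TPM and C1qa followed at 22.8 TPM. No gene of the adipocyte, pericyte and leukocyte lists was listed at 0. Their part in the ratios of the members was not tested.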

How the data were processed

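For both libraries the authors deposited gene and transcript values from an alignment to the transcriptome, and transcript values from an index of transcripts. GENCODE M21 on mm10 was the annotation, per the deposited notes. No source used here names the programs. Per the file headers, the expected counts carry no normalization. The authors scaled TPM and FPKM values for effective length and depth. The percent of a gene held by each transcript and the bounds of TPM are deposited columns, and the level of the bounds is not given. The library kit named in the labels is directional, but whether counting used strand is not given.

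Expected counts were rounded, scaled with TMM factors (edgeR 4.0.16, R 4.3.3) and compared as log2 ratios of replicate 2 over replicate 1 after adding 0.5. DESeq2 1.42.0 size factors were an alternative. A fold call needed a mean count of 100 or more and TPM bounds that did not overlap, and a direction needed a mean count of 10 or more. The calculation (Python 3.11.15, pandas 2.3.3) was tested on simulated counts with known changes. Every member is named. Each animal's values are given for the 2 highest members of a role, for ligands and receptors of the VEGF, angiopoietin, apelin and adrenomedullin systems, and for members 1.5-fold apart. The 2 highest genes of each further list, those 2-fold apart and those listed at 0 in both animals are named too. Members and lists were chosen with earlier results of these data known. Libraries were treated as separate animals on the strength of their animal numbers.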

Additional observations from a re-analysis of the deposited data

How the results depend on the processing

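Of 57 alternative values for 8 results, 50 stayed within limits of 1.5 times for counts, 0.1 for log2 medians and 1 SD for the median TPM, and none changed sign. With 20 TPM in place of 10 TPM, 11 members passed in both animals. The members' median of 10.06 TPM became 8.28 TPM in the index-based table, 28.3 TPM when rescaled over nuclear protein-coding genes, and 7.68 TPM over protein-coding transcripts. The last of these, and TPM with nothing added, were chosen after seeing the data. At 1.5-fold 4 members were apart. At 2-fold 0 were, with every scaling and pseudocount tried but deposited TPM with nothing added, which gave 1, Vwf. At 1 TPM for the gene, 27 of 33 members had the same highest transcript in both animals, where 17 of 19 did at 10 TPM. Leaving out an animal gave 37 to 38 members at 1 TPM, 20 to 21 at 10 TPM and medians of 9.46 to 10.7 TPM. Members below 0 numbered 29 to 37 and the median ratio ran from -0.23 to -0.10. Ratios between the animals need both libraries, so none could be recomputed with 1 left out. No paired analysis was possible because the labels give 1 group with 1 library for each replicate number. Depth limits Stab2, at 6 counts in replicate 2 and 3 in replicate 1.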
